A study of Rattus norvegicus with 19 samples.

Results

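Taok2, its paralogs Taok1 and Taok3, and the kinases that carry the signal on to JNK (Map2k4, Map2k7, Mapk8, Mapk9 and Mapk10) were followed in the hippocampus of rats with 1, 2 or 3 copies of the stretch of chromosome 1 homologous to human 16p11.2. The 8 genes were chosen by symbol among the 32623 genes of the files, where each symbol occurred once, and all 8 passed the expression filter. Taok2 lies in the rearranged interval and the other 7 genes lie outside it. RNA from the hippocampus of 19 Sprague Dawley males was sequenced, with 1 library per animal. The wild-type (wt) group had 6 libraries, Del/+ carried a deletion of the interval on 1 chromosome (1 copy, n = 4), Dup/+ carried a duplication of it (3 copies, n = 5), and Del/Dup carried the deletion on 1 chromosome and the duplication on the other (2 copies, n = 4). The age of the animals at sampling is not given in the sources used here; the study calls them adult. The stock is outbred, the carriers came from Cas9-made lines, and wt, Del/+, Dup/+ and Del/Dup were littermates of the same crosses.

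TAO kinases are serine/threonine kinases at the top of stress-activated MAP kinase cascades. They phosphorylate and activate MAP2Ks of the p38 and JNK arms. The MAP2Ks MKK4 (Map2k4) and MKK7 (Map2k7) phosphorylate the JNKs, of which JNK1 (Mapk8) and JNK2 (Mapk9) are made widely and JNK3 (Mapk10) mainly in the nervous system. In neurons, TAOK2 is known for its part in dendrite and spine formation, and JNKs act on transcription factors such as c-Jun and on microtubule proteins. Most control of these kinases is by phosphorylation, which RNA counts do not measure.

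The copy number on which the Taok2 values rest was set by a pair of Cas9 guide RNAs. Their target sequences are shown because they define the rearranged segment from Sult1a1 to Spn. The sequences are printed as the study lists the targets of the guides for the Sprague Dawley lines, with no base singled out. Their orientation is not stated there.
Guide 1: gcaatctcacgtgtctgatgg
Guide 2: gtgacatcgtgaccctgctgg

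Read counts per gene totalled 16191192 to 38760645 in a library. Levels are in CPM (reads of a gene scaled to a library of fixed size), with library sizes scaled by TMM factors, which even out differences in RNA composition. The Taok2 count was 2759 to 9314 reads in a library, and the smallest count of any of the 8 genes was 190 reads, for Taok3. The label of wt replicate 5 gave Dup/+ in its genotype field and wt in its description. Multi-mapped reads, which align at several places, made up over 55% of counted lines in 7 libraries (Del/+ replicates 1 to 3 and all 4 Del/Dup) and 40.1% to 50.5% in the other 12, so their share moved with the groups. The hippocampal neuron, oligodendrocyte, astrocyte and microglia markers (8, 7, 6 and 6 genes) each had a mean of at least 1 CPM in every group. In bulk tissue, fewer cells of a type and less RNA per cell cannot be told apart.

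Taok2 (ENSRNOG00000019964) followed the number of copies of the interval. In wt its level was 213 CPM at the lowest, 223 at the median and 224 at the highest. In Del/+ the 4 libraries stood at 117, 113, 99.7 and 112 CPM. In Dup/+ the 5 libraries stood at 328, 322, 338, 338 and 328 CPM. All Del/+ libraries lay below, and all Dup/+ libraries above, every wt library, without overlap, as was so for 4.94% of all genes in Del/+ and 1.17% in Dup/+.

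In Del/Dup the Taok2 level was 213, 219, 213 and 224 CPM, within the wt range. The mean of Del/+ was 110 ± 7.43 CPM (SD, n = 4). Del/Dup averaged 218 ± 5.28 CPM (SD, n = 4) and wt 221 ± 4.38 CPM (SD, n = 6). The mean of Dup/+ was highest, at 331 ± 6.76 CPM (SD, n = 5). In this order Del/Dup and wt were the neighbours that did not differ beyond their spread. Divided by the number of copies, the level was 110 ± 7.43 CPM per copy in Del/+, 111 ± 2.19 in wt, 110 ± 2.25 in Dup/+ and 109 ± 2.64 in Del/Dup.

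**Figure D1:**
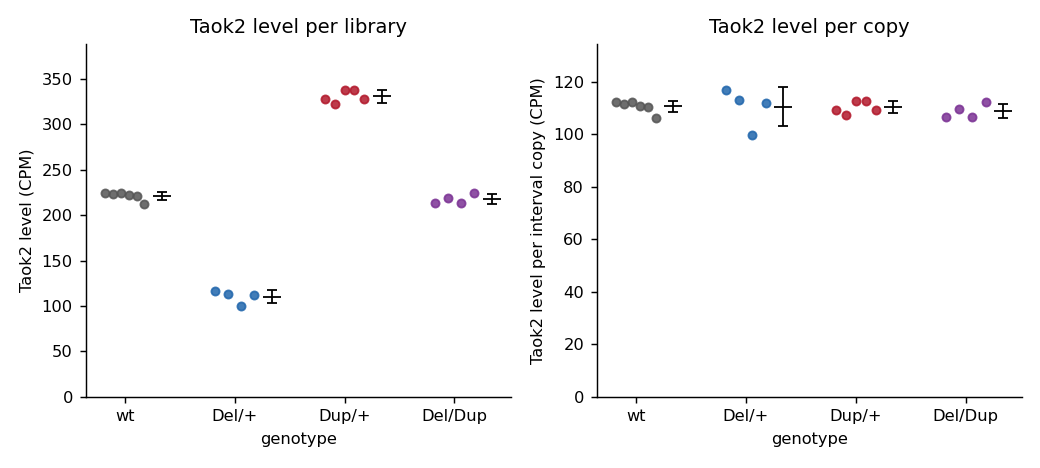
Taok2 level in CPM (left) and in CPM per copy of the interval (right) for the 4 genotypes; points are libraries, and the bars beside them give the mean ± SD. The libraries of Del/+ (99.7 to 117 CPM), wt (213 to 224) and Dup/+ (322 to 338) are separate at the left, and Del/Dup (213 to 224) lies on wt; at the right all 4 group means are between 109 and 111 CPM per copy.

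By edgeR's quasi-likelihood test with Benjamini-Hochberg adjustment over the 15440 genes tested, Taok2 fell in Del/+ against wt by 1.003 on the log2 scale (SE 0.0403, adjusted p = 2.60e-12). The level was 0.499 times that of wt (95% interval 0.471 to 0.529), where the ratio of copies is 0.5. It was the single member called of 8, beside a background of 0.771% of all genes (119 genes). Taok2 rose in Dup/+ by 0.58 on the log2 scale (SE 0.0363, adjusted p = 1.22e-08), to 1.49 times wt (95% interval 1.42 to 1.58), where the ratio of copies is 1.5. Again 1 of the 8 members was called, beside 0.272% of all genes (42 genes). Both intervals contained the ratio of copies.

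In Del/Dup against wt the log2 difference of Taok2 was -0.02 (SE 0.0390, adjusted p = 0.788 by edgeR's quasi-likelihood test), and the 95% interval of the ratio ran from 0.930 to 1.04. By edgeR, 0 of the 8 members were called in this comparison at the adjusted threshold, while 2 had an unadjusted p under 0.05 (background 16.2%), and DESeq2 also called 0. The background of calls was 0.0907% (14 genes).

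The carrier groups also differed from each other in Taok2. Del/+ stood at 0.334 times Dup/+ (log2 -1.58, SE 0.0422, edgeR adjusted p = 8.71e-16), where 0.784% of all genes were called. Del/Dup stood at 1.97 times Del/+ (log2 0.98, SE 0.0433, edgeR adjusted p = 1.64e-11; background 0.175%). It stood at 0.658 times Dup/+ (log2 -0.60, SE 0.0409, edgeR adjusted p = 3.88e-08; background 0.317%). In each of these comparisons Taok2 was the 1 member called. The 2 groups did not overlap, as was so for 5.3% of all genes in the first, 4.37% in the second and 4.56% in the third.

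A fit on the number of copies gave Taok2 a slope of 0.78 on the log2 scale per copy (SE 0.0388, edgeR adjusted p = 2.66e-11), and 0.576% of all genes were called. Taok2 had the smallest p of the 15440 genes in 6 of the 7 comparisons. The exception was Del/Dup against wt, where its rank was 10630. These comparisons share libraries and are not independent of each other.

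The multi-mapped share was higher than in wt in all 3 carrier groups, by 3.55 percentage points in Dup/+ (adjusted p = 0.0476 by exact permutation), by 19.3 percentage points in Del/+ (adjusted p = 0.0429 by exact permutation) and by 19.8 in Del/Dup (adjusted p = 0.0143 by exact permutation, from the smallest p that 210 splits allow). Within the 12 libraries of low share, Taok2 in Del/+ replicate 4, the 1 Del/+ library among them, stood at log2 -0.98 against wt, a value of 1 animal given with no test. Its log2 change in Dup/+ was 0.58 in those libraries (edgeR adjusted p = 1.87e-07). Within the 7 libraries of high share, Del/Dup exceeded Del/+ by 0.99 on the log2 scale (edgeR adjusted p = 0.000572). The summed level of 6 microglia markers was 201 to 218 CPM in wt, 169 to 205 CPM in Del/+ (log2 -0.14, exact permutation adjusted p = 0.0286) and 183 to 210 CPM in Dup/+ (log2 -0.10, exact permutation adjusted p = 0.0333). The part of these markers in the Taok2 values was not tested.

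With wt replicate 5 counted as Dup/+, after its genotype field, the Taok2 change in Dup/+ was 0.50 on the log2 scale and was still called (edgeR adjusted p = 0.0278). That library stood at 221 CPM, inside the range of the other wt libraries and below all 5 Dup/+ libraries.

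Taok2 was compared with the other genes of the interval list. The files held 27 of the 29 symbols listed, and 24 genes passed the filter. All 24 were called lower in Del/+ and 20 were called higher in Dup/+. The log2 changes of the 23 other genes ran in Del/+ from -1.28 (Maz, a zinc finger transcription factor) to -0.83 (Doc2a, a calcium sensor of transmitter release), with a median of -1.01. In Dup/+ they ran from -0.10 (Sult1a1, a sulfotransferase at the edge of the interval) to 0.66 (Hirip3), with a median of 0.51. Taok2 lay inside both ranges, 14th of 24 from the lowest in Del/+ and 17th in Dup/+. In Del/Dup, 1 of the 24 was called, Sult1a1, which stood at log2 -1.23, and the median of the 23 was -0.08.

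**Figure D2:**
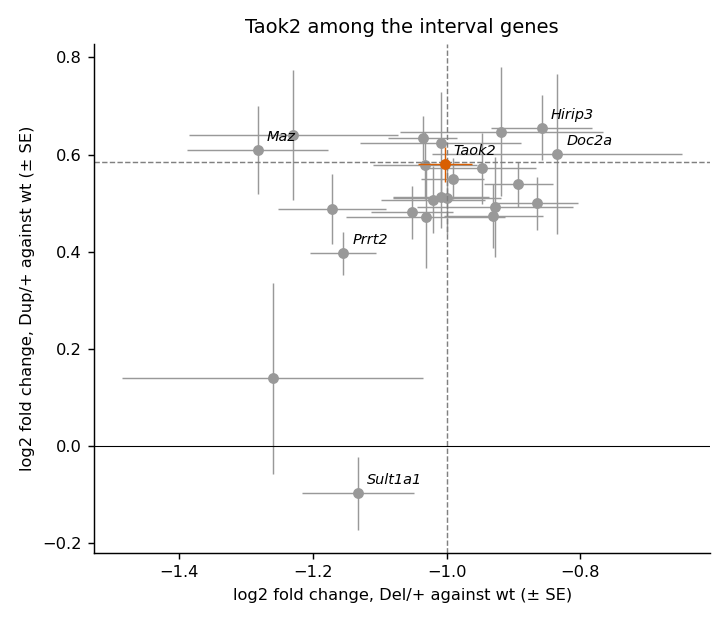
Log2 fold change against wt of the 24 tested interval genes in Del/+ (x axis) and Dup/+ (y axis), with SE bars; dashed lines mark the log2 ratio of copies, and both axes use the same 6 wt libraries. Taok2 (orange, -1.003 and 0.58) lies where the dashed lines cross, Maz (-1.28) is the farthest left and Sult1a1 (-0.10) the lowest.

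The genes next to Taok2 in the gene order of the RefSeq table (assembly GRCr8, used for order only) were Hirip3 and Ino80e on one side and Tmem219, which was not analysed here, and Kctd13 on the other. Kctd13, an adaptor of a cullin 3 ubiquitin ligase, changed by -0.9996 in Del/+ (SE 0.0811) and by 0.51 in Dup/+ (SE 0.0725) on the log2 scale. Hirip3, a histone-binding protein, changed by -0.86 (SE 0.0755) and 0.66 (SE 0.0667). Ino80e, a subunit of a chromatin remodeller, changed by -0.89 (SE 0.0522) and 0.54 (SE 0.0465). All 3 were called in both comparisons by edgeR, and 0 of them in Del/Dup (adjusted p of 0.371 to 0.823), where 0 had an unadjusted p under 0.05 and DESeq2 called 0. The call of Kctd13 in Dup/+ was lost with wt replicate 5 counted as Dup/+ (log2 0.42, adjusted p = 0.176).

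The genes whose pattern over the 19 libraries was most like that of Taok2 were Aldoa, Ino80e, Slx1b, Cdipt and Ppp4c. Likeness was the root mean square difference of log2 CPM relative to the wt mean, and it was 0.0804, 0.0814, 0.0975, 0.0993 and 0.111. All 5 are on the interval list. The first gene off the list, AABR07005779.2, came 10th, at 0.120. Over the 12 libraries of low multi-mapped share the 4 nearest genes were Coro1a, Slx1b, Aldoa and Ino80e, at 0.0532 to 0.0698. The 5th was AABR07005779.2, at 0.0841, which is not on the interval list. That list was written by symbol, and whether this gene lies inside the interval was not checked here. The study names a gene with the same name stem among highly expressed genes of the region in the duplication.

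No change with the number of copies was detected for the paralogs of Taok2. The log2 slope per copy was -0.0015 for Taok1 (95% interval -0.06 to 0.06, edgeR adjusted p = 0.992) and -0.02 for Taok3 (-0.14 to 0.10, edgeR adjusted p = 0.938). Taok1 (ENSRNOG00000015692) stood in wt at 202 CPM at the lowest, 231 at the median and 242 at the highest. It stood at 212, 231, 229 and 236 CPM in Del/+, at 226, 222, 209, 245 and 229 CPM in Dup/+, and at 218, 232, 202 and 225 CPM in Del/Dup. The 4 groups overlapped, and no pair of neighbours in the order of the means (Del/Dup 219, Dup/+ 226, Del/+ 227, wt 229 CPM) differed beyond the spread.

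On the log2 scale the Taok1 difference from wt was -0.01 in Del/+ (95% interval -0.12 to 0.10), -0.02 in Dup/+ (-0.12 to 0.09) and -0.06 in Del/Dup (-0.17 to 0.05), where leaving out 1 library gave -0.095 to -0.018. The edgeR adjusted p was 0.934, 0.959 and 0.578. An increase of Taok1 by more than 1.07 times in Del/+, where Taok2 was lowest, lay outside the 95% interval. For the decrease in Dup/+ the bound was 0.920 times wt.

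Taok3 (ENSRNOG00000001138) had the fewest reads of the 8 genes and the widest intervals. Its level was 10.99 CPM at the lowest, 13.1 at the median and 16.1 at the highest in wt. It was 11.9, 16.2, 13.5 and 12.6 CPM in Del/+, 12.3, 10.9, 11.4, 15.7 and 15.5 CPM in Dup/+, and 14.3, 13.9, 13.8 and 13.0 CPM in Del/Dup. The log2 differences from wt were 0.02 in Del/+ (95% interval -0.22 to 0.25), -0.02 in Dup/+ (-0.24 to 0.21) and 0.04 in Del/Dup (-0.20 to 0.28). The groups overlapped, with edgeR adjusted p of 0.951, 0.985 and 0.878.

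The make-up of TAOK reads differed between the groups. Of the CPM of the 3 TAO kinases, Taok2 took 31.5% ± 2.16 in Del/+ (SD, n = 4), and in Dup/+ it took 58.0% ± 1.53 (SD, n = 5). With 2 copies it took 47.8% ± 1.83 (SD, n = 6) in wt and 48.3% ± 1.12 (SD, n = 4) in Del/Dup. Taok1 took 64.7% in Del/+, 49.3% in wt, 48.6% in Del/Dup and 39.7% in Dup/+. In that order the summed CPM was 351 ± 10.95, 463 ± 14.1, 450 ± 16.8 and 570 ± 17.4. These are shares of reads, not of transcripts, since the counts are not per length, and they were not tested.

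Among the MAP2Ks that activate JNK, Map2k4 (ENSRNOG00000003834) was the member with the smallest p in Del/Dup. Its level in wt was 68.5 CPM at the lowest, 75.7 at the median and 77.4 at the highest. It was 76.0, 71.4, 73.5 and 72.1 CPM in Del/+, and 72.3, 71.0, 77.7, 74.1 and 72.7 CPM in Dup/+. In Del/Dup it was 66.2, 69.3, 70.5 and 68.0 CPM. The Del/Dup libraries lay below all Del/+ and all Dup/+ libraries and below 5 of the 6 wt libraries, and overlapped with wt through wt replicate 5.

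The log2 difference of Map2k4 in Del/Dup from wt was -0.13 (SE 0.0381, 95% interval of the ratio 0.867 to 0.968), which did not pass the correction (edgeR adjusted p = 0.163, unadjusted p = 0.00352). Over 29 alternatives that difference ran from -0.16 to -0.10 and was never called, with 0.0508 as the lowest adjusted p (edgeR or DESeq2). Against Del/+ it was -0.10 (adjusted p = 0.537) and against Dup/+ -0.10 (adjusted p = 0.269). Its ranges did not overlap in either, beside the 4.37% and 4.56% of all genes given above. The log2 differences of Del/+ and Dup/+ from wt were -0.03 (95% interval -0.11 to 0.05) and -0.02 (-0.10 to 0.05). Without wt replicate 5 the first was -0.054, and with that library counted as Dup/+ the second was -0.066.

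Map2k7 (ENSRNOG00000001047) was even across the groups. The wt libraries stood at 24.5 to 28.5 CPM. Those of Del/+ covered 24.2 to 28.5 CPM, those of Dup/+ 25.5 to 27.6 CPM and those of Del/Dup 25.5 to 28.2 CPM. The means were 26.6, 26.3, 26.4 and 26.6 CPM. The log2 differences from wt were between -0.02 and 0.0014, and the 95% intervals of the ratio lay within 0.918 and 1.08. With a term for the 7 libraries of high multi-mapped share, which rests on Del/+ replicate 4 because no other group had libraries of both kinds, Map2k7 in Del/Dup stood at log2 0.16 (edgeR adjusted p = 0.534), above those bounds.

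Of the JNKs, Mapk8 (ENSRNOG00000020155) showed the largest differences from wt. In wt its level was 38.4 CPM at the lowest, 40.5 at the median and 42.7 at the highest. It was 43.7, 45.2, 41.4 and 44.3 CPM in Del/+, and 41.2, 43.9, 44.1, 40.5 and 41.7 CPM in Dup/+. In Del/Dup it was 49.7, 38.2, 45.7 and 48.9 CPM, so that replicate 3 lay below every wt library and the other 3 above every one.

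The log2 difference of Mapk8 in Del/Dup from wt was 0.17 (SE 0.0577, 95% interval of the ratio 1.04 to 1.23). It did not pass the correction (edgeR adjusted p = 0.183, unadjusted p = 0.00696). Without Del/Dup replicate 3 it was 0.25 and passed (edgeR adjusted p = 0.0319). With that omission the calls over all genes in Del/Dup against wt went from 14 to 216. It was the single alternative of 29 in which any other member than Taok2 was called against wt in Del/Dup. In Del/+ the difference was 0.11 (95% interval -0.01 to 0.23, adjusted p = 0.326) and in Dup/+ 0.06 (-0.05 to 0.18, adjusted p = 0.777), or 0.024 with wt replicate 5 counted as Dup/+.

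Beside these Del/Dup values of Map2k4 and Mapk8, other measures of the same libraries moved. The summed level of 7 choroid plexus markers was 41.1 to 1209 CPM in Del/Dup and 2.79 to 34.1 CPM in wt, a log2 difference of 4.64 (exact permutation adjusted p = 0.0143). In Del/+ it was 4.92 to 1260 CPM and in Dup/+ 6.19 to 406 CPM. Of these markers, 6 had a mean of at least 1 CPM in Del/Dup and 3 in wt, and Otx2 was listed at 0 in every library. The microglia markers summed to 192 to 208 CPM in Del/Dup (log2 difference from wt -0.08, exact permutation adjusted p = 0.0333), with 0 of the 6 at 0. The 8 neuron markers summed to 5264 to 5916 CPM in Del/Dup and 5853 to 6772 CPM in wt (log2 difference -0.16, exact permutation adjusted p = 0.0857, unadjusted p = 0.0286). The 7 oligodendrocyte markers summed to 5943 to 7259 CPM in Del/Dup and 5114 to 6626 CPM in wt (log2 difference 0.21, exact permutation adjusted p = 0.0786). Total reads were lower in Del/Dup, by 0.44 on the log2 scale (exact permutation adjusted p = 0.0429). The part of these measures, and of the multi-mapped share, in the Map2k4 and Mapk8 values was not tested.

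Mapk9 (ENSRNOG00000002823) and Mapk10 (ENSRNOG00000002079) varied little. The wt libraries covered 230 to 245 CPM for Mapk9, those of Del/+ 235 to 248, those of Dup/+ 227 to 243 and those of Del/Dup 222 to 247. For Mapk10 the wt libraries covered 247 to 278 CPM, those of Del/+ 244 to 280, those of Dup/+ 248 to 270 and those of Del/Dup 243 to 266. For Mapk9 the 95% intervals of the ratio to wt lay within 0.937 and 1.07, and for Mapk10 within 0.905 and 1.08. With the same term, and so again resting on Del/+ replicate 4, Mapk10 in Del/Dup stood at log2 -0.21 (edgeR adjusted p = 0.358), below those bounds. All groups overlapped in both genes.

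The share of JNK reads that came from each JNK gene was close to even over the groups. In wt Mapk8 took 7.47% ± 0.153 of them (SD, n = 6), and its share in Del/+ was 7.94% ± 0.459 (SD, n = 4). Its share was 7.82% ± 0.356 (SD, n = 5) in Dup/+ and 8.51% ± 0.869 (SD, n = 4) in Del/Dup. The Mapk10 share was 48.6% in wt, 48.2% in Del/+, 48.4% in Dup/+ and 47.5% in Del/Dup. In that order the summed JNK level was 542 ± 18.1, 550 ± 22.4, 541 ± 7.14 and 535 ± 15.5 CPM. These shares were not tested.

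**Figure D3:**
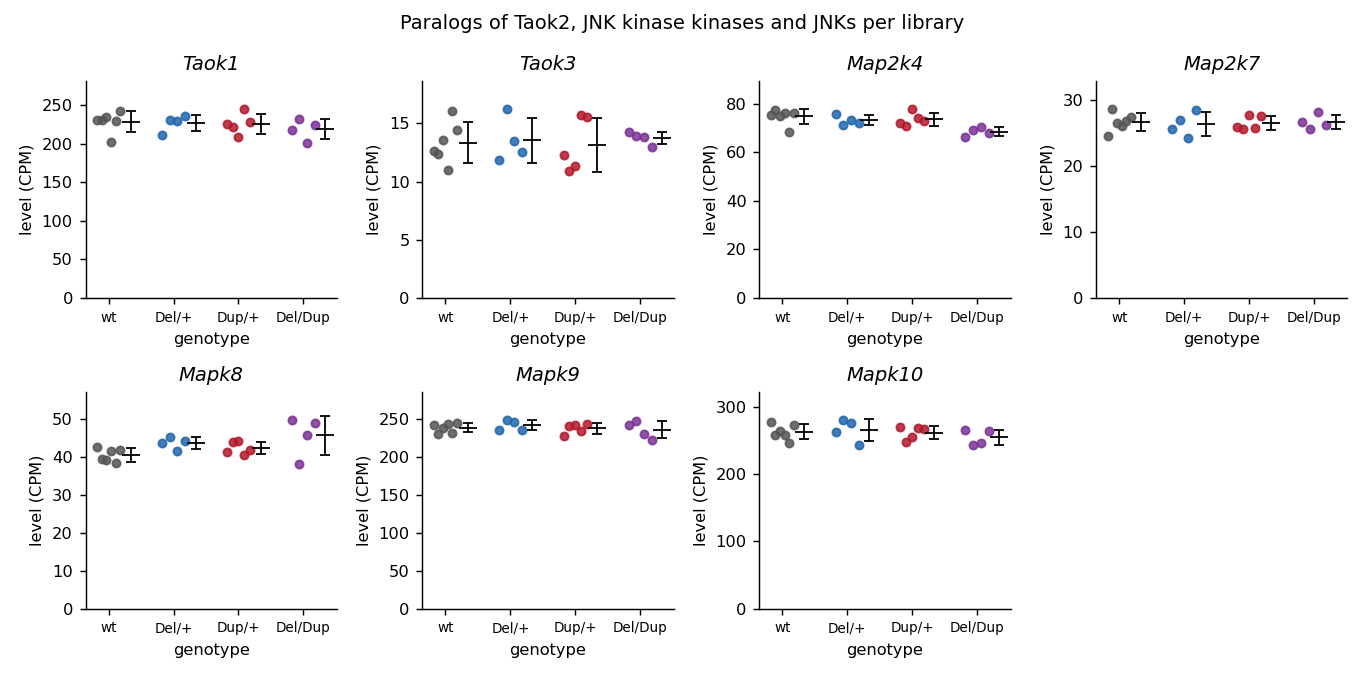
Level in CPM (y axes, each from 0) of the 7 members outside the interval in each library of the 4 genotypes; points are libraries and the bars beside them the mean ± SD. The groups overlap with wt in all 7 panels; Map2k4 is lowest in Del/Dup (66.2 to 70.5 CPM), and 3 of the 4 Del/Dup libraries of Mapk8 are above wt.

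Of the 7 genes outside the interval, 0 were called in any of the 7 comparisons by edgeR, nor by DESeq2. An unadjusted p under 0.05 was found for 2 of them in Del/Dup against wt, 1 in Del/Dup against Del/+ (Map2k4) and 1 in Del/Dup against Dup/+ (Map2k4), and for 0 in the other comparisons. The shares of all genes with such a p were 8.48% in Del/Dup against Del/+, 13.5% in Del/Dup against Dup/+, 13.5% in Del/+ against Dup/+ and 11.5% for the slope. Their 21 log2 differences from wt ran from -0.13 to 0.17, and every 95% interval of the ratio lay within 0.846 and 1.23. Their median log2 difference was 0.01 in Del/+, -0.01 in Dup/+ and -0.02 in Del/Dup, beside medians over all genes tested of 0.00048, -0.0018 and 0.0012. In Del/+ and in Dup/+, 0 of the 7 had an unadjusted p under 0.05, beside 18.4% and 8.94% of all genes. Their ranges overlapped with wt in all 21 cases, where 4.94% of all genes in Del/+, 1.17% in Dup/+ and 2.56% in Del/Dup did not overlap.

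**Figure D4:**
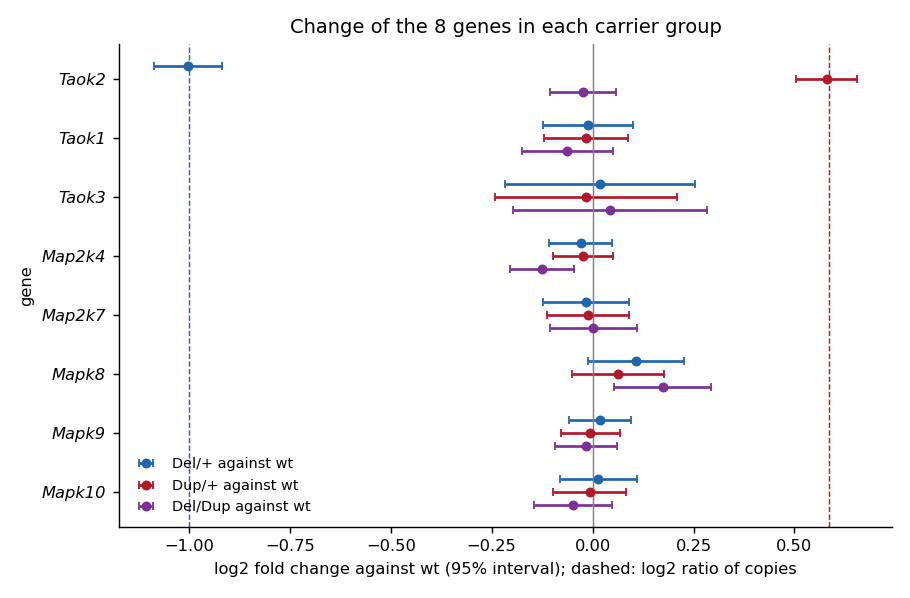
Log2 fold change against wt of the 8 genes (y axis) with 95% intervals (x axis) in Del/+ (blue), Dup/+ (red) and Del/Dup (purple); dashed lines mark the log2 ratio of copies in Del/+ and Dup/+. Taok2 lies on the dashed lines at -1.003 and 0.58 and at -0.02 in Del/Dup, and the 21 values of the other genes lie between -0.13 and 0.17.

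The genes around these kinases were read from 7 lists (inputs such as MAP4Ks and GTPases, other MAP3Ks, JNK scaffolds, phosphatases, JNK substrates, the p38 arm, and partners or targets of TAO kinases). Of 75 genes listed, 73 were in the files and 70 were tested. In Del/+ 1 of the 70 was called lower and 0 higher, beside 0.466% and 0.304% of all genes. In Dup/+ and Del/Dup 0 were called. An unadjusted p under 0.05 was found for 20 of the 70 in Del/+ (16 of them lower), 9 in Dup/+ (4 lower) and 19 in Del/Dup (10 lower), beside 18.4%, 8.94% and 16.2% of all genes. These shares count both directions together, so the split by direction has no share of all genes beside it. DESeq2 called 7, 2 and 3 of the 70, beside 6.94%, 0.446% and 1.1% of the genes to which it gave an adjusted p (641, 77 and 179 genes). These were Map3k10, Mink1, Mapk8ip1, Mapk8ip2, Plxna1 and Lats2 (lower) and Sept7 (higher) in Del/+, Elk1 and Mapt (lower) in Dup/+, and Map4k2 (higher), Mapk8ip2 and Rac1 (lower) in Del/Dup.

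The gene called was Map3k10, a mixed-lineage kinase that, like the TAO kinases, acts at the MAP3K level of the JNK cascade. It fell in Del/+ by 0.22 on the log2 scale (SE 0.0509, edgeR adjusted p = 0.0457). Its level was 175 to 193 CPM in Del/+ and 208 to 230 CPM in wt, without overlap. The call was lost in 17 of 30 alternatives, over which the adjusted p ran from 0.0028 to 0.171. In Del/Dup its log2 difference was -0.18 (adjusted p = 0.153) and in Dup/+ -0.11 (adjusted p = 0.528). Within the 12 libraries of low multi-mapped share the Map3k10 difference was -0.31, a value of Del/+ replicate 4 alone given with no test, and over all libraries but that one it was -0.19 (edgeR adjusted p = 0.171). In the same Del/+ libraries the oligodendrocyte markers summed to 6028 to 9033 CPM (log2 difference from wt 0.32, exact permutation adjusted p = 0.0786, unadjusted p = 0.0381). Their part in the Map3k10 value, and that of the microglia markers given above, was not tested. Map3k13, another MAP3K, stood at 0.12 in Dup/+ (adjusted p = 0.486). The 13 MAP3Ks tested had a median of -0.06 in Del/+, -0.01 in Dup/+ and -0.04 in Del/Dup.

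The kinases and GTPases that feed into the cascade had medians of 0.03, 0.04 and 0.03 over 13 genes. Mink1, a kinase of the misshapen family, stood at -0.21 in Del/+ (edgeR adjusted p = 0.0784), Map4k5 at 0.08 in Dup/+ (adjusted p = 0.477) and Map4k2 at 0.30 in Del/Dup (adjusted p = 0.107). Of the 7 scaffolds, which hold the kinases of the JNK module together, Mapk8ip1 (JIP1) stood at -0.16 in Del/+ (adjusted p = 0.0872). Mapk8ip2 (JIP2) stood at -0.20 in Del/+ (adjusted p = 0.0901), at -0.10 in Dup/+ (adjusted p = 0.610) and at -0.21 in Del/Dup (adjusted p = 0.138). In Del/+ and in Del/Dup, 4 of the 7 had an unadjusted edgeR p under 0.05, beside 18.4% and 16.2% of all genes. In each, 3 were lower and 1, Spag9, was higher (0.11 in Del/+ and 0.09 in Del/Dup). The scaffold medians were -0.07, -0.02 and -0.08 on the log2 scale in Del/+, Dup/+ and Del/Dup.

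Of the 5 phosphatases that can inactivate JNK, Dusp8 stood at log2 -0.17 in Del/+ (edgeR adjusted p = 0.211), Dusp4 at 0.20 in Dup/+ (adjusted p = 0.412) and Dusp1, an immediate-early gene, at 0.95 in Del/Dup (adjusted p = 0.174). Of the 14 JNK substrates, the transcription factor Jun stood at -0.27 in Del/+ (adjusted p = 0.141), at -0.01 in Dup/+ (adjusted p = 0.989) and at -0.16 in Del/Dup (adjusted p = 0.410). Elk1, a transcription factor that several MAP kinases phosphorylate, stood at -0.24 in Dup/+ (adjusted p = 0.121), at -0.16 in Del/+ (adjusted p = 0.169) and at -0.09 in Del/Dup (adjusted p = 0.446). Stmn4, a stathmin that binds tubulin, stood at 0.28 in Del/Dup (adjusted p = 0.201) and at 0.18 there without Del/Dup replicate 2. The substrate medians were -0.05, 0.01 and -0.06.

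In the p38 arm, the other branch that TAO kinases feed, 5 of 7 genes were tested. Mapk12 stood at log2 0.27 in Del/+ (edgeR adjusted p = 0.329) and at -0.20 in Dup/+ (adjusted p = 0.716). Its difference was 0.17 in Del/+ without Del/+ replicate 4, and -0.041 in Dup/+ with wt replicate 5 counted as Dup/+. In Del/Dup Mapk12 stood at 0.38 (adjusted p = 0.230) and Mapk11 at 0.58 (adjusted p = 0.153). Among 13 partners and other targets of TAO kinases, Sept7, a septin that TAOK2 phosphorylates, stood at 0.23 in Del/+ (adjusted p = 0.0871). It was 1 of 6 of the 13 with an unadjusted p under 0.05 in Del/+, beside 18.4% of all genes. The other 5 were lower, with log2 differences of -0.34 (Plxna1), -0.31 (Lats2), -0.25 (Plxna4), -0.23 (Nrp1) and -0.13 (Mark2). By edgeR 0 of the 13 were called, while DESeq2 called Sept7 higher (adjusted p = 0.0233) and Plxna1 and Lats2 lower (adjusted p = 0.0204 and 0.0403). In Del/+ DESeq2 called 6.94% of the genes to which it gave an adjusted p. Stk3, a kinase of the Hippo pathway, stood at 0.17 in Dup/+ (adjusted p = 0.523) and at 0.075 with wt replicate 5 counted as Dup/+. Sema3a, a guidance cue whose receptor Nrp1 binds TAOK2, stood at 1.25 in Del/Dup (95% interval 0.42 to 2.09, adjusted p = 0.174), and was 0.43 there without Del/Dup replicate 2. It was 1 of 5 of the 13 with an unadjusted p under 0.05 in Del/Dup, beside 16.2% of all genes. Of the others, Sept7 stood at 0.16, while Nrp1 and the plexins Plxna4 and Plxna1, which act as semaphorin receptors, stood at -0.31, -0.30 and -0.28. By edgeR and by DESeq2, 0 of the 13 were called in Del/Dup. The medians of these 13 genes were -0.04, -0.01 and -0.03.

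**Figure D5:**
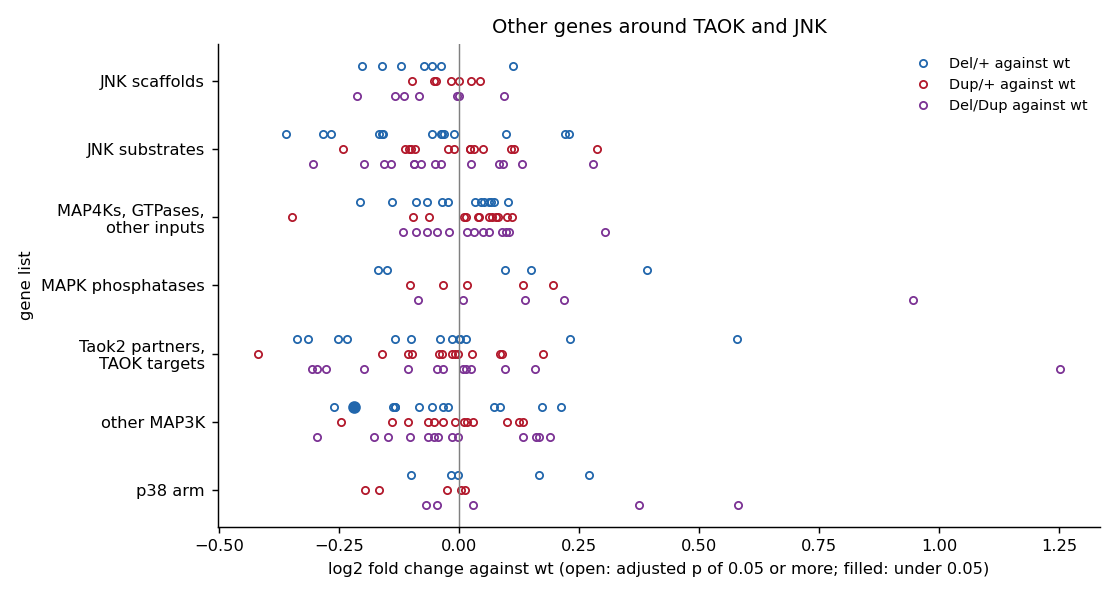
Log2 fold change against wt (x axis) of the 70 tested genes of 7 lists (y axis) in Del/+ (blue), Dup/+ (red) and Del/Dup (purple); each point is a gene, open where the adjusted p is 0.05 or more. The only filled point is Map3k10 in Del/+ (-0.22), and the rightmost point is Sema3a in Del/Dup (1.25).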

How the data were processed

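The authors made stranded total RNA libraries (the labels describe removal of rRNA, and the molecule field names polyA RNA), sequenced single-end reads, aligned them with HISAT2 to rn6 with Ensembl models and counted them with HTSeq. What they deposited are raw, not normalized, counts of reads per gene. HTSeq sums isoforms and leaves out multi-mapped reads, which made up 40.1% to 76.3% of counted lines. The 5 summary lines were left out of library sizes. The strand setting is not given in the sources used here.

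Groups and replicate numbers came from the description in the labels; wt replicate 5 was counted as wt. All 19 libraries entered 1 fit of edgeR 4.0.16 (R 4.3.3; TMM, filterByExpr, quasi-likelihood F test, a mean per group, prior count 2), with Benjamini-Hochberg adjustment over 15440 genes and calls at adjusted p under 0.05. SEs came from the F statistic. The common biological coefficient of variation was 0.101. The scripts were tested on simulated data. DESeq2 1.42.0, other scalings and filters, covariates and omissions were alternatives. Marker sums, total reads and multi-mapped share went into exact permutation tests (two-sided), adjusted over 3 comparisons of each measure.

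Named genes were the 8 members, the interval neighbours and the 5 genes most like Taok2. From each list they were the genes called and the gene with the smallest p in each comparison against wt. Maz, Doc2a, Sult1a1 and Hirip3 (as extremes) and the first gene off the interval list were named after their values were seen. So were Coro1a, Plxna1, Lats2, Plxna4, Nrp1, Mark2, Rac1, Mapt and Spag9. The members and lists were chosen with earlier results of these data known. Gene names and order came from the files and the GRCr8 RefSeq table, in which all 8 members matched. Libraries of a group differed by more than sampling noise (chi-square per degree of freedom 3.60 to 59.9 over 37 pairs). Nothing in the labels says that a replicate number joins animals of different groups. Tmem219 and the endothelial marker Pecam1 were not analysed here.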

Additional observations from a re-analysis of the deposited data

Results flagged for a closer look

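Of 64 sets of values (8 members and 8 library measures in 4 groups), 5 held a library far from the others of its group by Dixon's test, where chance flags about 1 in 20. Taok2 in wt replicate 6 stood at 212.8 CPM, with the nearest wt library at 220.9 CPM. Taok1 in wt replicate 4 stood at 202.3 CPM, with the nearest at 229.6 CPM. Map2k4 in wt replicate 5, the library whose labels disagree, stood at 68.45 CPM, with the nearest at 75.15 CPM. The summed choroid plexus markers stood at 1260 CPM in Del/+ replicate 3, with the nearest at 93.3 CPM, and at 406 CPM in Dup/+ replicate 2, with the nearest at 101 CPM.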

How the results depend on the processing

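Every call of Taok2 held its direction and passed the threshold in the alternatives run for it (28 to 30 per comparison), aside from 2 that rest on Del/+ replicate 4 alone in Del/+ against wt and Del/+ against Dup/+. These are the low-share libraries and the term for the high-share libraries, which gave nearly the same values (-0.98 and -1.56 in both), given with no test. With that term the comparisons of Del/Dup with wt and with Dup/+ also lean on that library. Over all of them the change ran from -1.03 to -0.95 in Del/+ against wt, and from 0.50 (wt replicate 5 counted as Dup/+) to 0.59 in Dup/+. In Del/Dup against wt it stayed uncalled and changed sign with a term for the 7 libraries of high multi-mapped share (0.0019, adjusted p = 0.997). The number of members called was unchanged in all alternatives except in Del/Dup against wt, where leaving out 1 library gave 0 to 1 (1, Mapk8, without Del/Dup replicate 3).

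The other 7 members had 623 alternative values against wt, from -0.21 to 0.25; 1 passed the threshold and 64 had the opposite sign to the reported value, all of them uncalled. The cause of these changes was not tested. With the term for the high-share libraries, which again rests on Del/+ replicate 4, Taok1 stood at 0.045 in Del/+ and 0.013 in Del/Dup, Taok3 at -0.086 and -0.096, and in Del/+ Map2k7 at 0.097, Mapk9 at -0.015 and Mapk10 at -0.11. With the share as a covariate, the Del/+ values were 0.040 for Taok1, -0.091 for Taok3, 0.037 for Map2k7, -0.0094 for Mapk9 and -0.036 for Mapk10, and the Del/Dup values -0.069 for Taok3 and -0.0027 for the interval gene Ino80e. Within the low-share libraries, chosen after seeing the data, the Del/+ values, of that same library, were 0.045, -0.086, 0.097, -0.015 and -0.11 for the same 5 genes. Library size alone gave 0.011 for Taok1 and 0.0042 for Map2k7 in Del/+, 0.0053 for Mapk9 and 0.0041 for Mapk10 in Dup/+, and 0.0059 for Mapk9 in Del/Dup. With wt replicate 5 as Dup/+, Taok3 stood at 0.099 in Dup/+ and Mapk10 at -0.0039 in Del/+; with no filter, Map2k7 stood at -0.0055 in Del/Dup.

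Leaving out 1 library at a time gave, for Del/+, Dup/+ and Del/Dup in turn, Taok1 values of -0.044 to 0.026, -0.049 to 0.011 and -0.095 to -0.018, and Map2k4 values of -0.054 to -0.015, -0.049 to -0.012 and -0.15 to -0.11. In Del/+ Taok3 ran from -0.072 to 0.080, in Dup/+ from -0.088 to 0.049, in Del/Dup from -0.0058 to 0.10, and for the same groups Map2k7 from -0.054 to 0.028, -0.034 to 0.011 and -0.021 to 0.030. Mapk9 ran from 0.0075 to 0.036, -0.015 to 0.0096 and -0.034 to 0.017, and Mapk10 from -0.010 to 0.058, -0.025 to 0.012 and -0.067 to -0.019. Over the alternatives that left out no single library, the values in Del/+, Dup/+ and Del/Dup ran for Map2k4 from -0.054 to -0.0098, -0.066 to -0.013 and -0.16 to -0.10 and for Mapk10 from -0.11 to 0.034, -0.039 to 0.0055 and -0.21 to -0.023. For Map2k7 and Mapk9 in Del/Dup they ran from -0.0062 to 0.16 and from -0.061 to 0.0059.

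Replicate numbers did not pair the libraries: over 24 pairs of the same number the median correlation of deviations from the group means was 0.021, 6 exceeded 0.1, and 10 of 48 best matches had the same number. With a replicate block Taok2 changed by -1.01 in Del/+, 0.57 in Dup/+ and -0.029 in Del/Dup. Values of opposite sign with the replicate block were 0.013 (Del/+) and 0.0026 (Dup/+) for Taok1, 0.0063 for Taok3, 0.0023 for Mapk9 and 0.0055 for Mapk10 in Dup/+, and -0.0062 for Map2k7 in Del/Dup. The block gave 72, 31 and 7 calls over all genes in Del/+, Dup/+ and Del/Dup.

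Counts over all genes moved more than the members did. In Del/+ the 119 calls became 46 to 337 with 1 library left out and 72 to 641 otherwise (641 by DESeq2). The 42 of Dup/+ became 27 to 44 and 12 to 77. Those of Del/Dup against wt, 14, became 2 to 216 and 3 to 179. The 121, 27, 49 and 89 calls of Del/+ against Dup/+, Del/Dup against Del/+, Del/Dup against Dup/+ and the slope ran over 51 to 262, 22 to 74, 7 to 176 and 43 to 169. Taok3 (190 to 523 reads a library) had the widest intervals of the 8.

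Several uncalled pathway values moved over 1.5-fold. With the term for the high-share libraries Map4k2 stood at 0.49, Mapk8ip2 at -0.41 and Map3k10 at -0.29 in Del/Dup, and Jun at -0.47, Mapk12 at 0.54 and Mink1 at -0.31 in Del/+; with the share as a covariate Dusp8 stood at -0.28 in Del/+. Without Del/Dup replicate 3 edgeR called Mapk11 (0.72), Map4k2 (0.35), Mapk8ip2 (-0.25) and Map3k10 (-0.23) in Del/Dup, among 216 calls (14 before). It called Map4k2 there (0.34) without wt replicate 5 or with it as Dup/+. In Del/+ (46 to 337 calls per omission) it called Mink1 (-0.24) and Mapk8ip1 (-0.20) without Del/+ replicate 1. Without Del/Dup replicate 2 or 3 it called Mink1 (-0.20) and Sept7 (0.24) there. The cause was not tested.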
